A study of Rattus norvegicus with 12 samples.

Results

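The genes described here encode the subunits of the mitochondrial respiratory chain and of ATP synthase. They were chosen by symbol alone from a table of 24660 genes. The rule took the nuclear genes of complex I whose names start with Ndufa, Ndufb, Ndufc, Ndufs or Ndufv and a digit, the genes Sdha to Sdhd of complex II, the Uqcr genes of complex III, the Cox4 to Cox8 families of complex IV, the Atp5 genes of complex V and the protein genes of the mitochondrial genome (Mt-nd, Mt-cyb, Mt-co and Mt-atp). In all, 91 genes matched, of which 78 lie in the nuclear genome and 13 in the mitochondrial genome. The nuclear members comprised 34 genes of complex I, 4 of complex II, 7 of complex III, 19 of complex IV and 14 of complex V. Of the mitochondrially encoded members 7 belong to complex I, 1 to complex III, 3 to complex IV and 2 to complex V.

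RNA-seq counts came from NRK-52E, a wild-type epithelial line of rat kidney tubules, in 12 libraries, 3 in each of 4 groups. Control cells have no agent named. TGF-beta1 cells received TGF-beta1, a cytokine that drives fibrosis, for 24 h at a labelled dose of 10 µg/ml, a unit that is in doubt. The other two groups received TGF-beta1 and afterwards 500000000 particles/ml of extracellular vesicles (EVs) for 48 h, either 2D-EVs made by a conventional method or 3D-EVs. All groups share the single cell line. Not given in the sources used here were the origin of the vesicles, whether TGF-beta1 was kept on during the vesicle treatment and the hour at which the other groups were harvested, so an effect of vesicles and one of the later time cannot be told apart. Nothing in the labels says whether the libraries of a group came from separate cultures, so p-values rest only on how these libraries spread, and that spread may be technical.

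Complexes I to IV pass electrons from NADH and succinate to oxygen, complexes I, III and IV pump protons as they do so, and ATP synthase (complex V) uses the proton gradient to make ATP. Complex II is built from nuclear genes alone, whereas the other complexes combine nuclear subunits, made in the cytosol and imported, with subunits translated inside the mitochondrion. Kidney tubule cells are rich in mitochondria and spend much ATP on transport, and lowered oxidative metabolism has been described in kidney fibrosis.

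Library totals lay between 32888125 and 39754319 counts. Among 15 tubular markers in the table, Krt8 had 34718 to 46419 counts and the brush border enzyme Ggt1 5455 to 12568, whereas Epcam and Pax2 were at 0 in every library, Krt18 had at most 5 counts and Cdh1 2 to 30. In CPM, which are counts scaled by library size and TMM factors, the list summed to 1190.6 to 1219.9 in control and 1462 to 1561 in the other groups. Of 8 immune markers 5, Ptprc among them, were at 0, but Cd14 had 6070 to 9626 counts, and the list summed to 181 to 196 CPM in control and 221 to 254 CPM in the other groups. Of 8 fibroblast and pericyte genes, Col14a1 had 4308 to 7239 counts, Postn 1270 to 2511 and Pdgfrb 633 to 904, but Dcn at most 2. That list summed to 249 to 267 CPM in control and 205 to 232 CPM elsewhere. The endothelial list (6 genes, Egfl7 335 to 522 counts, Tek 49 to 80, Emcn at 0) lay at 11.96 to 12.96 and 14.84 to 17.0 CPM. The podocyte list (Wt1 190 to 280 counts, Nphs1 at most 18) lay at 5.94 to 7.36 and 6.99 to 8.33 CPM. The part of these shifts in the results for the subunit genes was not tested. In bulk RNA, fewer cells of a type and less RNA per cell cannot be told apart.

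Of the 91 members, 84 passed the filter on low counts, 71 nuclear and all 13 mitochondrially encoded. The 7 left out were Ndufb2, Cox6b1-ps1 and Cox6c-ps1, at 0 in every library, and Uqcrb, Cox8c, Cox7b2 and Cox4i2, with at most 2, 2, 6 and 8 counts. In total 3 members carry names of pseudogenes, and reads of near-identical copies may have been split between such genes and their parents. The mitochondrially encoded members took 5.31 to 5.58% of all counts and the nuclear members 0.56 to 0.618%. A count of 1 stands for 0.0255 to 0.0305 CPM, and the mitochondrially encoded members had from 4113 counts (lowest library, Mt-nd3) to 815898 counts (highest, Mt-co1). Levels are compared here between groups and not between genes, since no transcript lengths were used.

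**Figure D1:**
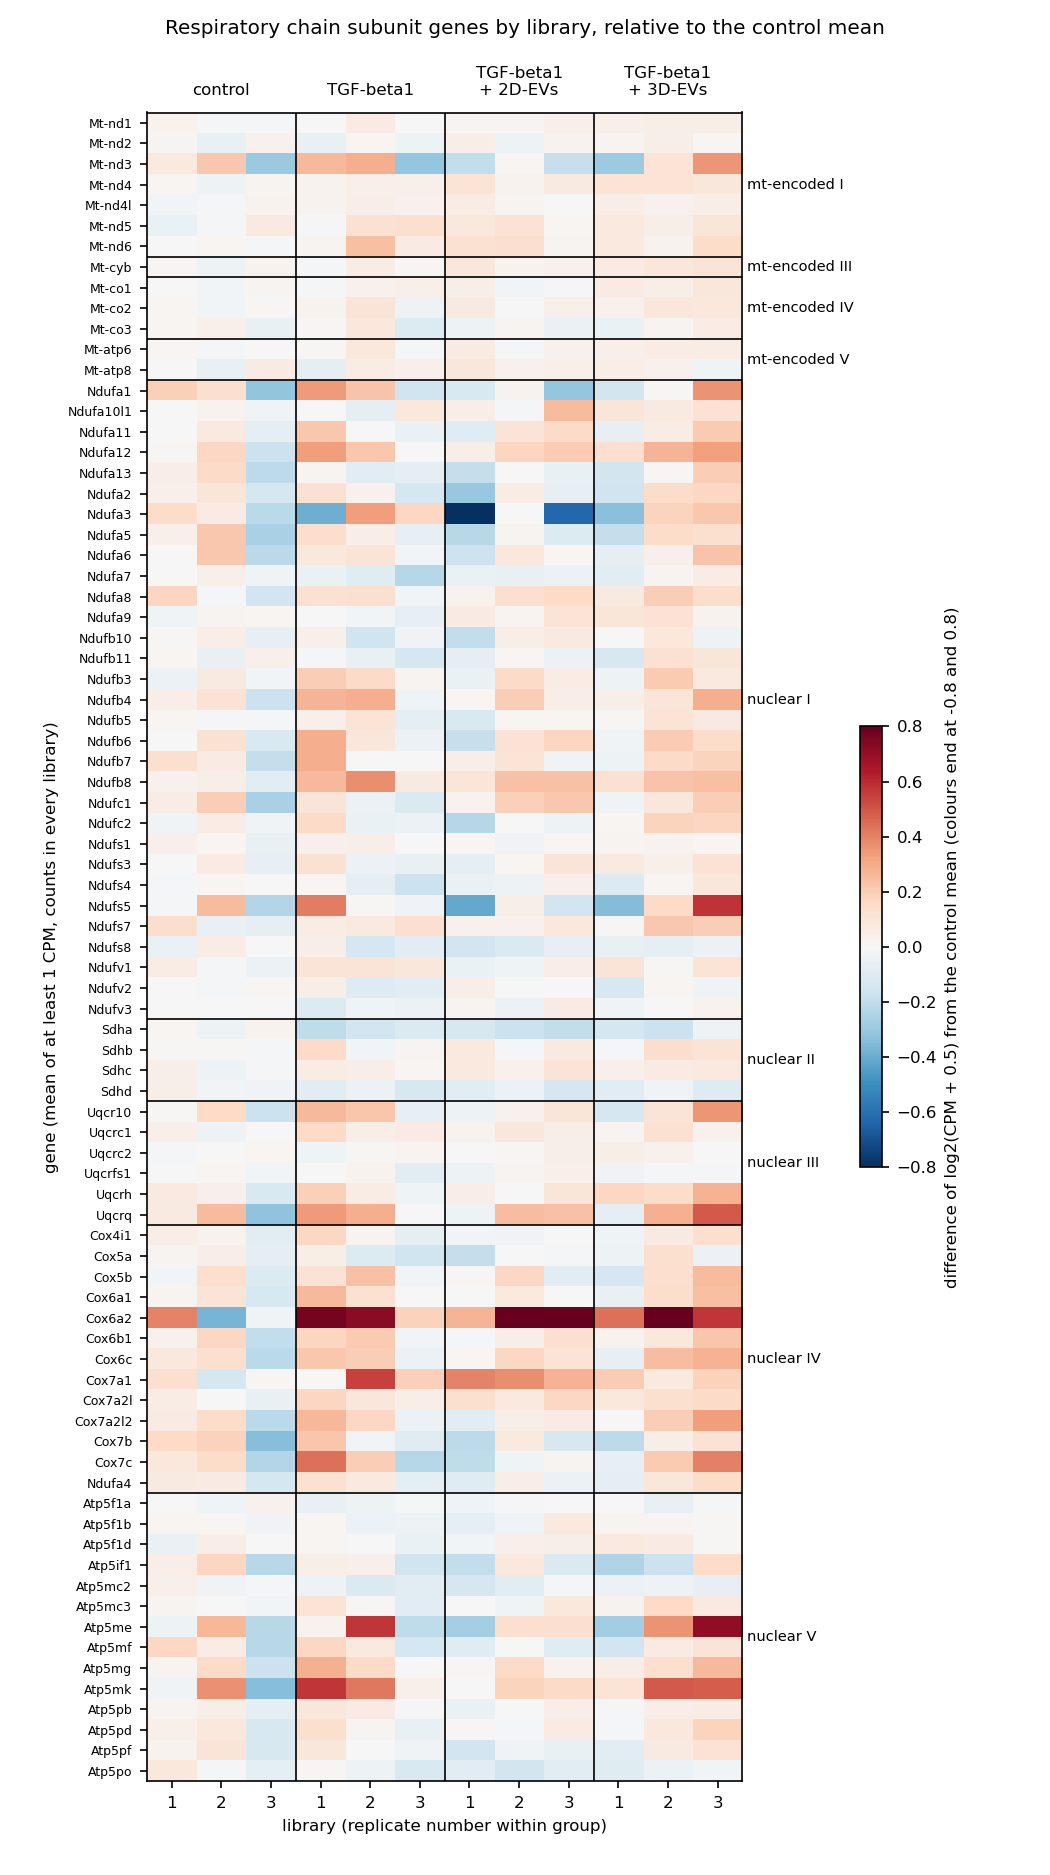
Rows are the subunit genes with a mean of at least 1 CPM and counts in every library, ordered by genome and complex, and columns are the 12 libraries. Colour gives the difference of log2(CPM + 0.5) from the mean of the 3 control libraries. Most nuclear rows are paler or bluer in control 3, TGF-beta1 3, 2D-EV 1 and 3D-EV 1 than in the other libraries of each group, while most mitochondrially encoded rows stay near white throughout.

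TGF-beta1 left most subunit genes near their control level. In TGF-beta1 against control cells, edgeR's quasi-likelihood test with Benjamini-Hochberg adjustment over the 14184 genes tested called 1 of 71 nuclear members higher (Ndufb8), 1 lower (Sdha) and none of 13 mitochondrially encoded members at an adjusted p below 0.05. Of all tested genes 22% were called, 11.8% higher and 10.2% lower. At an unadjusted p below 0.05 the counts were 9 nuclear and 1 mitochondrially encoded member (Mt-nd6), beside 33% of all tested genes, and DESeq2 called 2 and 0. The nuclear count was 1 without control 1, control 3 or TGF-beta1 2 and 4 without TGF-beta1 3, and the mitochondrially encoded count was 2 without TGF-beta1 1. The median size of the log2 fold change, without its sign, was 0.06 over the members and 0.13 over all tested genes, although their median standard errors were alike, 0.067 and 0.078. The 95% intervals of 74 of the 84 members and of 9452 of the 14184 tested genes lay within 0.5 log2 units of 0. Libraries of the 2 groups did not overlap for 8 nuclear and 2 mitochondrially encoded members, 11.3% and 15.4% of each, beside 38% of all tested genes.

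By complex, fold changes were small in each. With TGF-beta1 the median log2 fold change of the tested nuclear members was 0.03 in complex I (33 genes, 22 above 0), -0.02 in complex II (4, 2 above 0), 0.08 in complex III (6, 4 above 0), 0.12 in complex IV (14, 13 above 0) and 0.01 in complex V (14, 8 above 0), beside -0.00 over all tested genes (6959 of 14184 above 0). Calls were 1 in complex I and 1 in complex II. In 2D-EV against control cells the medians were -0.00, -0.02, 0.04, 0.03 and -0.01, and in 3D-EV against control cells 0.07, -0.01, 0.09, 0.12 and 0.03, from complex I to V. These 3 comparisons share the control libraries, and no complex was tested against another.

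Sdha, the flavoprotein of complex II that oxidises succinate, was the only subunit that fell in any comparison. It lay at 179, 173 and 181 CPM in control libraries 1 to 3, at 154, 159.7 and 164 CPM with TGF-beta1, at 162, 157 and 155 CPM with 2D-EVs added and at 161, 158 and 172 CPM with 3D-EVs added. The 3 control libraries were above all 9 others. With TGF-beta1, Sdha fell by 10.4% (95% interval -15.4 to -5.13%; log2 fold change -0.16, SE 0.039, adjusted p = 0.00811). It was also lower with 2D-EVs (log2 fold change -0.17, SE 0.039, adjusted p = 0.00685) and with 3D-EVs (-0.12, SE 0.039, adjusted p = 0.0414), each against the same control libraries. The first and second of these calls held under all 13 alternatives run (adjusted p up to 0.0489 and 0.0453). The 3D-EV call was lost without control 1 (adjusted p = 0.116), control 3 (0.136), 3D-EV 1 (0.129) or 3D-EV 2 (0.173), without the 4 low libraries described further on (0.272), with the replicate number as a block (0.051) and with only the 2 groups in the fit (0.0532).

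The other complex II genes did not pass. Sdhb, the iron-sulfur subunit, lay at 77.5, 77.6 and 76.4 CPM in control, 85.9, 75.9 and 78.5 CPM with TGF-beta1, 81.5, 76.5 and 81.1 CPM with 2D-EVs and 76.2, 85.1 and 83.3 CPM with 3D-EVs. Sdhc, a membrane anchor, lay at 144, 135 and 138, then 145, 144 and 141, then 147, 142 and 150.4, and then 143, 145 and 147 CPM in the same order of groups. Sdhd, the other membrane anchor, lay at 80.8, 76.8 and 76.7, then 73.6, 75.6 and 71.6, then 73.3, 75.4 and 71.1, and then 73.3, 76.7 and 72.7 CPM. For Sdhb and Sdhc the groups overlapped or differed little. The Sdhd control libraries lay above all TGF-beta1 and all 2D-EV libraries, and neither difference passed (with TGF-beta1, log2 fold change -0.09, adjusted p = 0.144 in edgeR). Within complex II the 4 subunits therefore had fold changes of both signs with TGF-beta1, from -0.16 (Sdha) to 0.05 (Sdhb) on the log2 scale; whether Sdha differed from the others was not tested.

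Ndufb8, an accessory subunit of the membrane arm of complex I, was the only nuclear member that rose with TGF-beta1. Its control libraries lay at 26.5, 26.7 and 24.4 CPM, the TGF-beta1 libraries at 31.0, 33.6 and 27.2 CPM, the 2D-EV libraries at 27.6, 30.5 and 30.4 CPM and the 3D-EV libraries at 28.1, 30.4 and 30.6 CPM. All 9 treated libraries were above the controls, and within every group the lowest value came from the library low in most nuclear subunits. The rise with TGF-beta1 was 18.4% (95% interval 5.79 to 32.4%; log2 fold change 0.24, SE 0.076, adjusted p = 0.0316 in edgeR). The call was lost without control 1 (adjusted p = 0.0565), control 3 (0.125), TGF-beta1 1 (0.0813) or TGF-beta1 2 (0.154), and with only the 2 groups in the fit (0.0577). With 2D-EVs and 3D-EVs the log2 fold change against control was 0.19 and 0.20 and missed the threshold (edgeR adjusted p = 0.1 and 0.0736), but the 3D-EV difference passed in DESeq2 (0.0491) and in the fit of only the 2 groups (0.0417).

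The start regions of the 4 nuclear genes called at more than 20 CPM are shown because the same kinds of site recur in this family: NRF1 and the ETS factor GABP are known activators of respiratory chain genes. The sequences are the 250 bases before each RefSeq gene start on rat build GRCr8, 5′ to 3′ on the gene's strand, with matches to the NRF1 motif (GCGCA, any base, then GCGC) or the ETS motif CCGGAAG on either strand in capitals. The YY1 motif AAGATGG and the ERR motif AAGGTCA were searched in the same way, and no match of the 4 motifs was set aside for overlapping another. Sdha lies at chr1:30764303-30764552 (plus strand), Ndufb8 at chr1:253362937-253363186 (minus), Uqcrh at chr5:134790883-134791132 (minus) and Cox7a2l at chr6:16936324-16936573 (plus).
Sdha: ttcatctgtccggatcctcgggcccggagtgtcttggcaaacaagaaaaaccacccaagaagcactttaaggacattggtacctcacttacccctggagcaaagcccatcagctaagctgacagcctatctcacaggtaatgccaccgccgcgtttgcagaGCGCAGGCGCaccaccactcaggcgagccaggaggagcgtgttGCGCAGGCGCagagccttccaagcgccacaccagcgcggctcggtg
Ndufb8: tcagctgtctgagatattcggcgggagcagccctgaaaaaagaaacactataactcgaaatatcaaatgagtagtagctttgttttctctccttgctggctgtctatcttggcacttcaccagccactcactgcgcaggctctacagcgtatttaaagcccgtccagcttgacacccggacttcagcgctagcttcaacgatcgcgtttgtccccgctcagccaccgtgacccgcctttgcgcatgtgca
Uqcrh: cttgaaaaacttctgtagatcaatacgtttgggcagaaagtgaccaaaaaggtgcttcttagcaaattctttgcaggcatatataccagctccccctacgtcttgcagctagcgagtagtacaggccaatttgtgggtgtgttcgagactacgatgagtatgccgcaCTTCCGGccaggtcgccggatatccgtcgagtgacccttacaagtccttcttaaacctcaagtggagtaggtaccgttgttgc
Cox7a2l: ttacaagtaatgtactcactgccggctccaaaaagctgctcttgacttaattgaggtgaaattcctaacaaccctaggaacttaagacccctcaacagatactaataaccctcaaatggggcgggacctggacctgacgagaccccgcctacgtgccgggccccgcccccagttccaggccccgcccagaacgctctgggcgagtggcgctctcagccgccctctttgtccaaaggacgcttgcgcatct
Sdha, which fell, holds 2 NRF1 matches, Uqcrh holds 1 ETS match, and Ndufb8 and Cox7a2l hold none of the 4 motifs in this window. Of the 78 nuclear members 67 had a RefSeq promoter by symbol. NRF1 letters stood in 10 of 67 (14.9%) beside 4.17% of 27457 rat promoters of the same length, ETS letters in 18 (26.9%) beside 7.74%, YY1 letters in 4 (5.97%) beside 4.63%, and ERR letters in 6 (8.96%) beside 3.77%. The members' promoters were richer in CpG, with a median of 15 CpG beside 6 in all promoters, and had a median GC content of 54.8% beside 52%. A match describes letters in the window and shows no binding.

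None of the mitochondrially encoded genes passed with TGF-beta1 alone or with 2D-EVs. Their log2 fold changes with TGF-beta1 ran from -0.03 (Mt-nd2) to 0.11 (Mt-nd6), with a median of 0.03, and those with 2D-EVs against control from -0.13 (Mt-nd3) to 0.09 (Mt-nd6). For TGF-beta1 the 95% intervals of all 13 lay within 0.5 log2 units of 0, and those of 11 within 0.2. Without TGF-beta1 1, edgeR called 2 of them, Mt-nd5 and Mt-nd6, higher (adjusted p = 0.0358 and 0.0482).

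In 3D-EV cells against control, 2 mitochondrially encoded genes passed, Mt-nd4, a proton-pumping subunit of complex I, and Mt-cyb, the cytochrome b of complex III. All 13 had a fold change above 0 (median 0.06 on the log2 scale), and for 8 of 13 (61.5%) every 3D-EV library was above every control library. Before TMM scaling, the 13 genes together took 5.52 ± 0.059% of all counts in control and 5.54 ± 0.038% with 3D-EVs (mean ± SD, n = 3). The TMM factors were 1.023 to 1.030 in control and 0.983 to 0.988 with 3D-EVs. The part of this scaling in the differences was not tested. For nuclear members 9 of 71 (12.7%) had separated groups in either direction, 7 of them higher. Over all tested genes the share separated in either direction was 38%. Called members made up 15.4% of the mitochondrially encoded and 4.23% of the nuclear members, beside 23% of all tested genes (12.2% higher, 10.8% lower). At an unadjusted p below 0.05 there were 7 nuclear and 3 mitochondrially encoded members, beside 34%. The mitochondrially encoded count was 1 without control 2, 3D-EV 2 or 3D-EV 3, and the nuclear count of 3 was 5 without control 1, 0 without control 3 and 1 without 3D-EV 2 or 3D-EV 3. Mt-nd4 lay at 4829.6, 4634 and 4849 CPM in control, 4859.9, 4901 and 4902 CPM with TGF-beta1, 5135, 4861 and 5020.3 CPM with 2D-EVs and 5154, 5154 and 5085 CPM with 3D-EVs. The 3 control libraries were the lowest of the 12. The rise with 3D-EVs was 7.54% (95% interval 3.54 to 11.7%, log2 fold change 0.10, SE 0.026, edgeR adjusted p = 0.00806) and kept its call under all 13 alternatives (adjusted p up to 0.0319). None of these alternatives scaled by total counts alone, so they do not show how far the rise depends on scaling factors.

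Mt-cyb lay at 5407, 5194 and 5440.2 CPM in control, 5318, 5572 and 5386 CPM with TGF-beta1, 5687, 5447 and 5473 CPM with 2D-EVs and 5583, 5701 and 5749 CPM with 3D-EVs. In these TMM-scaled CPM all 3D-EV libraries were above all control and all TGF-beta1 libraries. Unscaled, Mt-cyb had 194313 of 34830269 counts in control 3 and 219231 of 39754319 in 3D-EV 1, a smaller share in 3D-EV 1. The part of the scaling in this separation was not tested. The difference from control was 6.19% (95% interval 1.97 to 10.6%; log2 fold change 0.09, edgeR adjusted p = 0.033). It did not pass without control 2 (adjusted p = 0.115), 3D-EV 2 (0.0925) or 3D-EV 3 (0.101), with a replicate block (0.0682) or with only the 2 groups in the fit (0.0617). Mt-co1, the catalytic subunit of cytochrome c oxidase, lay at 19818, 19535 and 20173 CPM in control and 20779.5, 20480.0 and 21109.8 CPM with 3D-EVs. These scaled values did not overlap either. Unscaled, Mt-co1 had 720551 counts in control 3 and 815898 in 3D-EV 1, again a smaller share of the total in 3D-EV 1. Its difference missed the threshold (0.07 on the log2 scale, edgeR adjusted p = 0.0573). Against TGF-beta1 cells, which is the comparison that bears on the vesicles, Mt-nd4 and Mt-cyb differed by 0.07 log2 units each in 3D-EV cells and missed the threshold (edgeR adjusted p = 0.601 and 0.643).

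Of the other mitochondrially encoded genes, 9 spread by a within-group SD of 0.021 to 0.072 log2 units and had no call in any comparison, and Mt-nd3 spread more, as described further on. In complex I, Mt-nd1, a core membrane subunit like Mt-nd2, Mt-nd4 and Mt-nd5, had 2208 ± 41.7 CPM in control, 2247 ± 58.6 with TGF-beta1, 2252 ± 16.02 with 2D-EVs and 2277 ± 2.87 with 3D-EVs (mean ± SD, n = 3, here and for the next genes). Mt-nd2 had 3143 ± 107, 3078.5 ± 87.6, 3169 ± 108 and 3206 ± 36.1 CPM, and Mt-nd5 2532 ± 112, 2674 ± 144, 2663 ± 92.7 and 2665 ± 48.7 CPM. Mt-nd6, the only one of the 13 encoded on the light strand, had 414 ± 3.56, 447 ± 36.8, 442 ± 18.3 and 439.55 ± 18.4 CPM. Its control libraries were below all others, but the difference with TGF-beta1 of 0.11 log2 units did not pass (edgeR adjusted p = 0.135).

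Mt-co2 and Mt-co3, core subunits of complex IV, had 3368 ± 45.0 and 4592 ± 160 CPM in control, 3446 ± 169 and 4575 ± 303 with TGF-beta1, 3455 ± 93.2 and 4511 ± 130 with 2D-EVs and 3536 ± 75.5 and 4622 ± 188 with 3D-EVs. Mt-atp6, the proton channel subunit of ATP synthase, had 5406 ± 64.9, 5506 ± 199, 5524 ± 146 and 5616 ± 49.3 CPM, and its partner Mt-atp8 1374 ± 60.0, 1382 ± 70.9, 1427 ± 31.2 and 1389 ± 41.9 CPM. Mt-nd4l, a small membrane subunit of complex I, had 685 ± 12.7, 703 ± 4.64, 699 ± 13.8 and 708 ± 5.9 CPM.

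**Figure D2:**
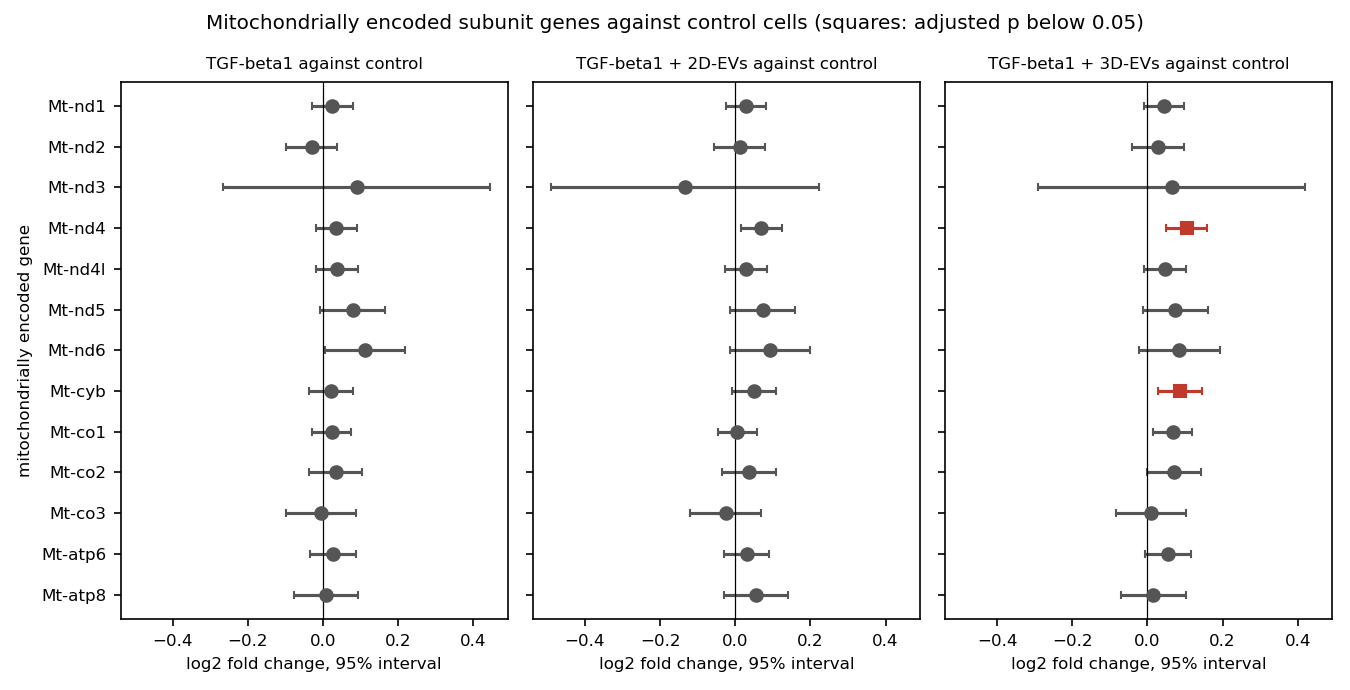
Each row is a mitochondrially encoded gene and each panel a group set against the same 3 control libraries. Points are edgeR log2 fold changes with 95% intervals, and squares mark an adjusted p below 0.05. The squares are Mt-nd4 and Mt-cyb with 3D-EVs, at 0.10 and 0.09, and Mt-nd3 has the widest interval in every panel.

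Among nuclear members, Uqcrh, the hinge protein of complex III, rose with 3D-EVs against control. It lay at 75.2, 73.1 and 65.3 CPM in control, 81.3, 74.1 and 69.3 CPM with TGF-beta1, 73.9, 70.8 and 76.1 CPM with 2D-EVs and 79.8, 78.8 and 86.3 CPM with 3D-EVs. The 3D-EV libraries were above all control and all 2D-EV libraries but overlapped those with TGF-beta1. The rise was 14.6% (95% interval 4.5 to 25.8%; log2 fold change 0.20, SE 0.063, edgeR adjusted p = 0.0337). It was lost without control 2 (adjusted p = 0.0525), control 3 (0.153), 3D-EV 1 (0.0521) or 3D-EV 3 (0.135), and without the 4 low libraries (0.138). Against 2D-EV cells the difference was 0.15 log2 units (unadjusted p = 0.0304, edgeR adjusted p = 0.683).

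Cox7a2l, which joins complexes III and IV in supercomplexes, also rose with 3D-EVs against control. Its libraries lay at 103, 98.3 and 94.8 CPM in control, 111, 105 and 102 CPM with TGF-beta1, 108, 104 and 111 CPM with 2D-EVs and 105, 108 and 109.8 CPM with 3D-EVs. Each vesicle library was above each control library, and only the lowest TGF-beta1 library fell below the highest control. The rise was 8.89% (log2 fold change 0.12, SE 0.041, edgeR adjusted p = 0.0444), beside 0.12 with 2D-EVs (adjusted p = 0.0518) and 0.10 with TGF-beta1 (0.0883). The 3D-EV call was lost without control 2 (adjusted p = 0.101), control 3 (0.174), 3D-EV 2 (0.11) or 3D-EV 3 (0.134), without the 4 low libraries (0.167), with no filter on low counts (0.0588) and with a replicate block (0.0628). The 2D-EV difference passed on all libraries in DESeq2 (0.0384) and with RLE factors in edgeR (0.049), and without control 1 (0.0347) or 2D-EV 2 (0.0497).

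**Figure D3:**
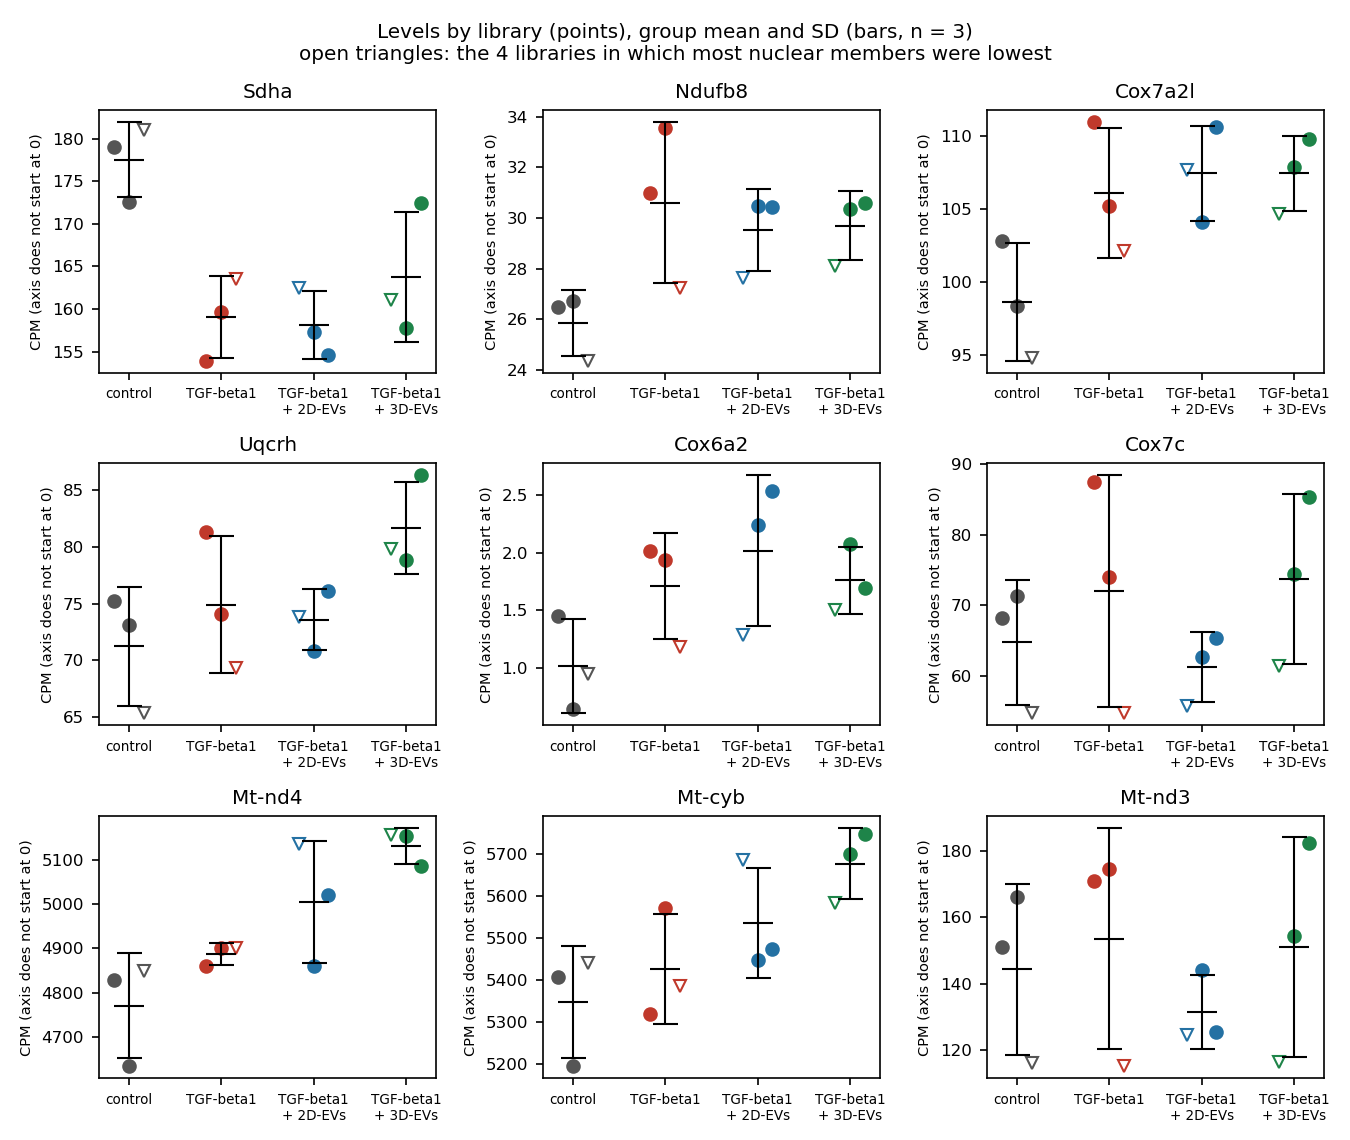
Each panel gives the CPM of a gene in the 12 libraries, with the group mean and SD of 3 libraries as bars. Open triangles are the libraries in which most nuclear members were lowest. Sdha is highest in the 3 control libraries, Mt-nd4 lowest there, and Cox7c and Mt-nd3 are lowest at the triangles of every group.

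In 2D-EV cells against control, 1 of 71 nuclear members rose (Cox6a2), 1 fell (Sdha, above) and none of 13 mitochondrially encoded members passed in edgeR (1 at an unadjusted p below 0.05, Mt-nd4; none in DESeq2), beside 18.6% of all tested genes (10.5% higher, 8.13% lower). At an unadjusted p below 0.05 there were 9 nuclear members, beside 30% of all genes. Groups were separated for 10 nuclear (14.1%) and 3 mitochondrially encoded members (23.1%), beside 33.2%. The nuclear count was 1 without control 2 or control 3, and the mitochondrially encoded count 1 (Mt-nd4) without 2D-EV 2. Cox6a2 is the heart and muscle isoform of a complex IV subunit. It had 51, 22 and 34 counts in control, 70, 69 and 43 counts with TGF-beta1, 44, 79 and 83 counts with 2D-EVs and 59, 73 and 57 counts with 3D-EVs. The 2D-EV and control libraries overlapped at these low counts. The log2 fold change was 0.99 (SE 0.33, edgeR adjusted p = 0.0493), and the call was lost without control 2 (0.176), control 3 (0.126), 2D-EV 2 (0.135) or 2D-EV 3 (0.178), with a replicate block (0.0831) and with only the 2 groups in the fit (0.0765). With TGF-beta1 it was 0.75 (adjusted p = 0.127) and with 3D-EVs 0.79 (0.104), the latter passing without control 1 (0.0416).

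Itgax, an integrin gene 2 rows from Cox6a2 in the RefSeq gene order, moved the same way: it had 24.5 ± 1.16 CPM in control, 44.1 ± 1.69 with TGF-beta1, 45.3 ± 5.18 with 2D-EVs and 47.0 ± 1.37 with 3D-EVs (mean ± SD, n = 3). How the counting treated strand is not given here, and the part of Itgax in the Cox6a2 counts was not tested. Of 8 striated muscle markers, Tnnt2 had 192 to 256 counts, most of their sum, and Myh6 6 to 46. Myl2 was at 0 in every library, Ckm had at most 11 counts, Mb at most 6 and Actc1 at most 10, and the list summed to 6.77 to 8.2 CPM in control and 6.77 to 9.89 CPM elsewhere.

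The remaining isoform pairs showed no called difference in any of the 6 comparisons. Cox4i1, the common isoform of a complex IV subunit, lay at 218, 213 and 198 CPM in control, 235, 213 and 198 CPM with TGF-beta1, 207, 205 and 209 CPM with 2D-EVs and 205, 220.3 and 229.8 CPM with 3D-EVs. Cox4i2, known as the hypoxia-induced isoform, had 0 to 8 counts and was not tested. Cox6a1, the common partner of Cox6a2, lay at 131, 138 and 118, then 154, 139.8 and 128, then 129, 136 and 129, and then 123, 142 and 152 CPM in the same order of groups. For both common isoforms the lowest control, TGF-beta1 and 3D-EV values came from the same libraries, control 3, TGF-beta1 3 and 3D-EV 1, and the groups overlapped.

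Cox7a1, the muscle isoform of another complex IV subunit, had 68, 52 and 62 counts in control, 60, 98 and 74 with TGF-beta1, 83, 84 and 72 with 2D-EVs and 81, 65 and 68 with 3D-EVs. The 2D-EV libraries were above the controls without passing (log2 fold change 0.43, edgeR adjusted p = 0.159). Ndufa4, a complex IV subunit in spite of its name, lay at 169.5, 169 and 146 CPM in control, 176, 170.4 and 153 CPM with TGF-beta1, 150.4, 167 and 156 CPM with 2D-EVs and 153, 172 and 179 CPM with 3D-EVs. Its paralogue Ndufa4l2 had 0 to 14 counts. Cox6b1, which faces the intermembrane space, lay at 90.5, 98.8 and 76.9, then 99.5, 102 and 86.8, then 87.6, 91.6 and 96.5, and then 90.1, 93.7 and 103 CPM, again with the same library lowest in each group as for most nuclear members. Cox7a2, Cox6b2, Cox8a and Atp5mc1 were not analysed here, since no row under these symbols was among the genes that matched. The nuclear members are therefore not a full set of subunits.

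In complex V, Atp5mc2 encodes the c-ring subunit and lay at 185, 177 and 179 CPM in control, 175, 167 and 170.0 CPM with TGF-beta1, 165, 169 and 179 CPM with 2D-EVs and 174, 176 and 173 CPM with 3D-EVs. Control libraries were above those with TGF-beta1, but the difference of -0.08 log2 units did not pass (edgeR adjusted p = 0.124). Atp5mc3, which encodes the same mature subunit, lay at 137, 135 and 133, then 145, 136 and 126, then 135, 132 and 143, and then 137, 150.4 and 142 CPM. Atp5if1, the inhibitor that blocks ATP hydrolysis by the synthase, lay at 39.5, 43.0 and 32.5, then 39.4, 39.3 and 34.0, then 33.1, 40.3 and 35.1, and then 32.2, 33.7 and 42.2 CPM. The groups overlapped for both genes.

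The vesicles changed no subunit gene past the threshold relative to TGF-beta1 cells. In 2D-EV against TGF-beta1 cells edgeR called none of 71 nuclear and none of 13 mitochondrially encoded members (2 and 0 at an unadjusted p below 0.05, none in DESeq2), where 0.0282% of all tested genes were called and 7.1% had an unadjusted p below 0.05. In 3D-EV against TGF-beta1 cells it called none of either (2 and 2 unadjusted, none in DESeq2), where 0% of all genes were called and 7.24% passed unadjusted. In 3D-EV against 2D-EV cells it called none of either (2 and 1 unadjusted, none in DESeq2), where 0.00705% were called and 6.9% passed unadjusted. Median log2 fold changes of the nuclear members were -0.05, 0.02 and 0.06 in these 3 comparisons, and those of the mitochondrially encoded members 0.00, 0.02 and 0.02. A missed threshold does not show equal levels, but the 95% intervals of 60, 63 and 60 of the 71 nuclear members, and of 12, 13 and 12 of the 13 mitochondrially encoded members, lay within 0.5 log2 units of 0.

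The subunits at an unadjusted p below 0.05 were few. Separated groups were found for 2 nuclear and 0 mitochondrially encoded members in 2D-EV against TGF-beta1 cells (12.4% of all tested genes), 2 and 3 in 3D-EV against TGF-beta1 cells (13.6%), and 3 and 2 between the vesicles (11.4%). Ndufa9, an accessory subunit beside the matrix arm of complex I, lay at 75.3, 74.4 and 72.3 CPM with TGF-beta1, 79.3, 76.7 and 81.7 CPM with 2D-EVs and 80.9, 81.8 and 77.0 CPM with 3D-EVs. Both vesicle groups were above the shared TGF-beta1 libraries, by 7.04% and 7.96%, and neither passed (edgeR adjusted p = 0.576 and 0.597). Ndufa7, another accessory subunit of complex I, lay at 104.5, 101 and 92.5 CPM with TGF-beta1 and 102, 110.3 and 113 CPM with 3D-EVs, so that the groups overlapped, and the difference of 9.13% missed the threshold (edgeR adjusted p = 0.601). Ndufv1, the NADH-oxidising subunit, had 76.4 ± 0.37 CPM with TGF-beta1 and 70.8 ± 2.93 CPM with 2D-EVs (mean ± SD, n = 3; adjusted p = 0.576 in edgeR). Ndufc2, a small membrane-arm subunit, had 43.7 ± 3.59 CPM with 2D-EVs and 50.6 ± 3.19 CPM with 3D-EVs (adjusted p = 0.618 in edgeR).

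**Figure D4:**
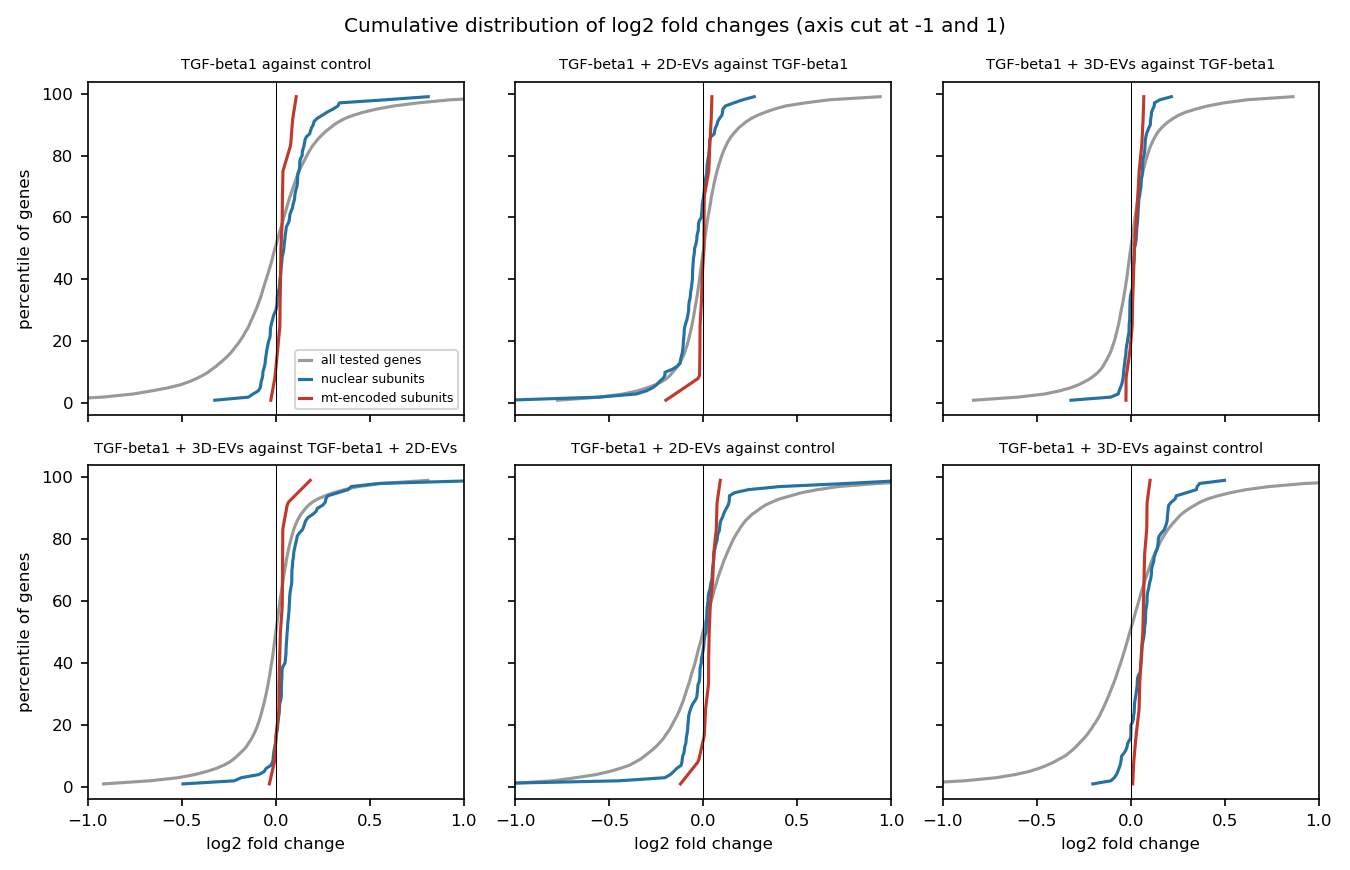
Each panel shows, for a comparison, the percentile of genes (vertical) at or below a log2 fold change (horizontal, from -1 to 1) for all tested genes, the nuclear subunits and the mitochondrially encoded subunits. The subunit curves are steeper than that of all genes in the 3 comparisons with control, where the median size was 0.06 over the members and 0.13 over all genes for TGF-beta1.

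The summed counts of the 2 genomes kept nearly the same ratio in all groups. Mitochondrially encoded members had 9.04, 8.83 and 9.73 times the counts of the nuclear members in control libraries 1 to 3, 8.68, 9.45 and 9.6 times with TGF-beta1, 9.87, 9.18 and 9.09 times with 2D-EVs and 9.64, 9.19 and 9.11 times with 3D-EVs. Group means were 9.2 ± 0.468, 9.24 ± 0.493, 9.38 ± 0.431 and 9.32 ± 0.285 (SD, n = 3), so the groups differed by less than the spread between libraries. As a ratio within a library it does not depend on the scaling. Over genes, the nuclear members spread more within groups than the mitochondrially encoded ones, with a median SD of log2(CPM + 0.5) of 0.099 and 0.041, beside 0.095 over all tested genes.

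That spread followed the libraries. In each group 1 library was the lowest for most nuclear members: control 3 for 51 of 71, TGF-beta1 3 for 52, 2D-EV 1 for 47 and 3D-EV 1 for 52, or 66.2 to 73.2%. The same libraries were lowest for 32.1 to 33.9% of all tested genes and for 3, 5, 2 and 6 of 13 mitochondrially encoded members. They were also lowest for 66, 68, 58 and 66 of 74 cytosolic ribosomal protein genes. In all 4 groups at once, 27 of 71 nuclear members (38.0%), 52 of 74 ribosomal protein genes (70.3%), 1 of 13 mitochondrially encoded members and 475 of 14184 tested genes (3.35%) were lowest there. These libraries were picked by the values themselves, so the counts are a description without a test.

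The dips were uneven across subunits. Cox7c, a small complex IV subunit, lay at 68.3, 71.3 and 54.7 CPM in control, 87.4, 73.9 and 54.8 CPM with TGF-beta1, 55.8, 62.8 and 65.4 CPM with 2D-EVs and 61.5, 74.4 and 85.3 CPM with 3D-EVs. Its mean in the 4 low libraries was 22.6% below that of the others of their groups. Uqcrq of complex III was 23.6% lower there, and Atp5mk and Atp5me of complex V 23.5% and 36.7% lower, the last at 1.3 to 3.07 CPM. Atp5f1a, the alpha subunit of the ATP synthase head, by contrast lay at 508, 495 and 519.6 CPM in control, 488, 493 and 501 CPM with TGF-beta1, 495, 501 and 507 CPM with 2D-EVs and 509, 488 and 505 CPM with 3D-EVs, and Sdha was 2.22% higher in the low libraries.

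Mt-nd3, a small complex I subunit, was the only mitochondrially encoded gene that was lowest in the low library of all 4 groups. It lay at 151, 166 and 116 CPM in control, 171, 175 and 115 CPM with TGF-beta1, 125, 144 and 126 CPM with 2D-EVs and 116, 154 and 182 CPM with 3D-EVs, and was 25.1% lower in the low libraries on average. Its within-group SD of 0.276 log2 units was the highest of the 13, whose median was 0.041. Leaving the 4 low libraries out was a choice made after seeing the data. TGF-beta1 against control then had 2 nuclear and 0 mitochondrially encoded calls, as with all libraries. In 3D-EV against control there were 2 nuclear calls, Ndufa12 and Cox6c, both higher (edgeR adjusted p = 0.042 and 0.0446). The same comparison had 3 mitochondrially encoded calls (Mt-nd4, Mt-cyb and Mt-co1). The share of all tested genes called in this fit is not given here, so these counts cannot be read as few or many.

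**Figure D5:**
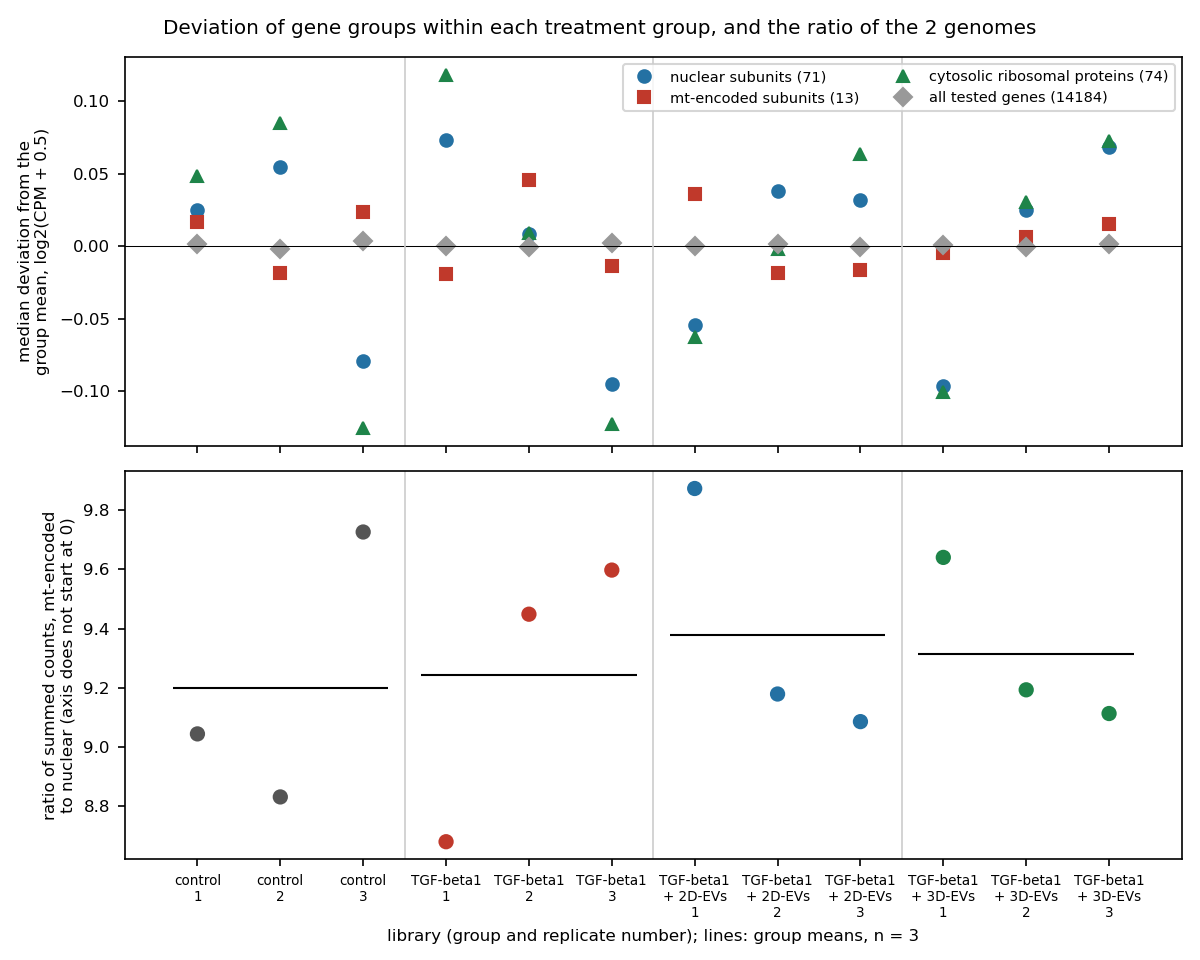
The upper panel gives, for each library, the median deviation of 4 sets of genes from their group means, in log2(CPM + 0.5), and the lower panel the ratio of mitochondrially encoded to nuclear subunit counts with group means as lines. Nuclear subunits and ribosomal protein genes dip together in control 3, TGF-beta1 3, 2D-EV 1 and 3D-EV 1, and the ratio is highest in those libraries.

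In 3D-EV against control cells 59 of 71 nuclear members and 13 of 13 mitochondrially encoded members had a fold change above 0, beside 6944 of 14184 tested genes. The nuclear median of 0.07 log2 units was 0.03 without control 3 and 0.04 without 3D-EV 3, and stayed at 0.07 without the 4 low libraries. For TGF-beta1 the nuclear median of 0.04 was 0.00 without control 3 and without TGF-beta1 1 (-0.00 and 0.00), and 0.04 without the low libraries. Medians of this size thus moved with single libraries. Before TMM scaling, the nuclear members together took 0.601 ± 0.024% of all counts in control and 0.595 ± 0.021% with 3D-EVs (mean ± SD, n = 3). The part of the scaling in the signs and medians of these fold changes was not tested.

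Genes that build or run the chain without matching the rule also had few calls. Of 56 assembly factors listed 42 were tested: 1 rose with TGF-beta1, 1 with 2D-EVs and 2 with 3D-EVs against control, and none fell. Of all tested genes 22%, 18.6% and 23% were called in these comparisons. Surf1, a complex IV assembly factor, had 113 ± 1.79 CPM in control, 128 ± 7.15 with TGF-beta1, 131 ± 3.81 with 2D-EVs and 124 ± 5.41 with 3D-EVs (mean ± SD, n = 3; edgeR adjusted p = 0.00891, 0.00299 and 0.0421). The last was lost on leaving out any of control 1, 2 or 3 or 3D-EV 1 or 2 (adjusted p 0.0554 to 0.185), with a replicate block (0.0676) and without the 4 low libraries (0.195), which also ended the TGF-beta1 call (0.0597). Sdhaf1, an assembly factor of complex II, rose from 25.7 ± 1.78 to 33.3 ± 4.2 CPM with 3D-EVs (edgeR adjusted p = 0.0074).

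Of 4 subunits and carriers outside the rule, Cycs (cytochrome c, which carries electrons to complex IV) rose in each group: 114 ± 4.81 CPM in control, 135 ± 9.09 with TGF-beta1, 132.8 ± 11.97 with 2D-EVs and 139.6 ± 4.23 with 3D-EVs (edgeR adjusted p = 0.00855, 0.0164 and 0.00222). The 2D-EV call was lost without control 3 (adjusted p = 0.0781), 2D-EV 3 (0.0802) or the 4 low libraries (0.059). Of 25 genes of mitochondrial DNA and RNA maintenance 23 were tested: 1 fell with TGF-beta1, 2 rose with 2D-EVs, and 1 rose and 1 fell with 3D-EVs, beside the same 22%, 18.6% and 23% of all tested genes. Mgme1, a nuclease that processes mitochondrial DNA ends, had 8.07 ± 0.491 CPM in control, 5.74 ± 0.691 with TGF-beta1 (adjusted p = 0.00626) and 5.97 ± 0.519 with 3D-EVs (0.0128, lost without control 2 at 0.0514, without 3D-EV 1 at 0.0576 and without the low libraries at 0.129).

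Twnk, the mitochondrial DNA helicase, rose with 2D-EVs from 32.0 to 36.8 CPM (edgeR adjusted p = 0.0191), a call lost without control 1 or 3, 2D-EV 1 or 3, or the low libraries (0.0569 to 0.175). Fastkd1, which acts on mitochondrial RNA, rose from 14.4 to 17.3 CPM with 2D-EVs (adjusted p = 0.0314) and to 17.0 CPM with 3D-EVs (0.0396). The first was lost without control 1 or 2 or 2D-EV 3 (0.0725 to 0.15) or with only the 2 groups in the fit (0.0718), and the second without control 1 or 2, 3D-EV 1 or 2, or the low libraries (0.0829 to 0.154) or with no filter (0.0549). Of 13 transcriptional regulators 11 were tested, and 1 was called in 3D-EV against control cells, where 23% of all tested genes were, and none in the other comparisons: Gabpb2, a GABP subunit, had 5.91 ± 0.852 CPM in control and 4.06 ± 0.701 with 3D-EVs (adjusted p = 0.0326, lost without control 2 or 3D-EV 2 or 3, 0.0921 to 0.14, and with a replicate block, 0.0521). None of these lists had a call in the comparisons among the 3 groups given TGF-beta1.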

How the data were processed

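Total RNA of 12 NRK-52E libraries was sequenced by the study's authors. Per gene, the authors deposited raw counts without normalization, and the 12 tables by library were identical to the joint table. Per the submitters' processing notes, fastp, HISAT2, StringTie and DESeq2 were used with build mRatBN7.2. Not given in the sources used here were versions, counting settings, strand handling and annotation.

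Counts were fitted with edgeR 4.0.16 (R 4.3.3): filterByExpr with a minimum count of 10 kept 14184 of 24660 genes, one model with a mean per group and TMM factors covered the 12 libraries, and the quasi-likelihood F-test was adjusted by Benjamini-Hochberg over the genes tested, with a threshold of 0.05. The code was tested on simulated data. CPM are TMM-scaled, and intervals are 95%. Depth of 32888125 to 39754319 counts limits the precision of members with few counts. Named with values in every library were the called members, the isoform pairs, Atp5if1 and the Sdh genes. The low libraries and subunits just past an unadjusted threshold were picked after their values were seen. The members and gene lists were chosen with earlier results of these data known. Alternatives were DESeq2 1.42.0, RLE factors, totals without mitochondrially encoded genes, no filter, a replicate block, fits of 2 groups, another summary of the ratio, each library left out and, added after seeing the data, the 4 low libraries left out. A nuclear member that entered the fits and counts is not reported here by name. RefSeq (GRCr8) gave promoters and gene order only.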

Additional observations from a re-analysis of the deposited data

How the results depend on the processing

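The counts of called members and the ratio of the genomes were recomputed 204 times, and 182 values stayed within 1.5 times the count or within 1 SD. The 182 include the counts of 0 in the 3 comparisons among groups given TGF-beta1. There at most 4 of 14184 tested genes were called, so those counts could hardly move. With only the 2 groups in the fit, 1 nuclear member was called in TGF-beta1 against control, 1 nuclear in 2D-EV against control, and 1 mitochondrially encoded in 3D-EV against control. DESeq2 called 5 nuclear members in 3D-EV against control. RLE factors, totals without mitochondrially encoded genes and no filter moved no count by over 1.5 times. Same-numbered libraries showed no sign of pairing: residuals of 18 such pairs correlated by -0.067 to 0.0448, none above 0.1. For 5 of 12 libraries, the mean correlation with libraries of the other groups was highest for their own number, out of 3 numbers. Such weak correlation does not show that the libraries were prepared apart. With the replicate block, 1 nuclear member was called in 2D-EV against control, and 1 nuclear and 1 mitochondrially encoded in 3D-EV against control; the other counts did not move. The causes were not tested. For the alternatives, the share of all tested genes called is not given here. Leaving out single libraries gave 1 to 4 nuclear and 0 to 2 mitochondrially encoded calls for TGF-beta1 against control, 1 to 3 and 0 to 1 for 2D-EV against control, 0 to 5 and 1 to 3 for 3D-EV against control, and 0 in the other comparisons. The log2 difference of the ratio then ran from -0.022 to 0.05 for TGF-beta1 and from -0.011 to 0.07 and 0.06 for 2D-EV and 3D-EV against control, from -0.022 to 0.049 and -0.032 to 0.04 for 2D-EV and 3D-EV against TGF-beta1, and from -0.035 to 0.029 between the vesicles. Groups of 3 libraries and, for members with few counts, depth limit what could be detected.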
